A study of Rattus norvegicus with 16 samples.

Results

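The genes described here are 10 of the TGF-beta and activin branch of signalling: the ligand genes Tgfb1, Tgfb2, Tgfb3, Inhba and Inhbb, the receptor genes Tgfbr1 and Tgfbr2, the ligand-binding antagonists Fst and Fstl3, and the intracellular inhibitor Smad7. They were given as a list of symbols, chosen with earlier results of these data known. Shares of all genes set beside their counts below are therefore a description and no test. Each gene was looked up among the probe sets that are annotated to exactly 1 gene. Of the 10, 9 had such a probe set, 1 each, among 14506 genes in all. Tgfbr2, the type II receptor, had none and was not analysed here. The probe sets are 10705213 for Tgfb1, 10770577 for Tgfb2, 10891303 for Tgfb3, 10868923 for Tgfbr1, 10798702 for Inhba, 10767095 for Inhbb, 10821408 for Fst, 10900782 for Fstl3 and 10802734 for Smad7, and their positions in the genome are not given in the sources used here.

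The samples were 16 male Sprague-Dawley rats in 4 groups of 4, and right-lung RNA of each was measured on an Affymetrix rat gene array. One group had hypoxia, estradiol and fulvestrant (titled hypoxia+estrogen+fulvestrant), another hypoxia and estradiol (hypoxia+estrogen), another hypoxia alone, and the last stayed in normoxia. The hypoxic rats spent 2 weeks at a pressure of 362 mmHg, like breathing 10% oxygen. Osmotic pumps delivered 75 µg/kg/day of the estrogen estradiol over 3 weeks, starting 1 week ahead of hypoxia. Fulvestrant, an antagonist of the nuclear estrogen receptors, was given as a daily subcutaneous injection of 3 mg/kg/day. The rats weighed 250 to 300 g, and the labels do not say whether the 2 groups without estradiol carried empty pumps. The study's stated subject is an estrogen receptor-dependent lessening of what hypoxia changes in lungs of rats with pulmonary hypertension. RNA came from homogenised lung, so fewer cells of a type and less RNA per cell cannot be told apart in any result below.

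TGF-beta and activin are secreted dimers of 1 protein family. Each brings together a type I and a type II receptor kinase, and the type I kinase phosphorylates Smad2 and Smad3, which act on genes in the nucleus. Activin A is a dimer of the product of Inhba and activin B of that of Inhbb. Follistatin (Fst) and follistatin-like 3 (Fstl3) bind activins and keep them from their receptors, and Smad7 is induced by the pathway and blocks its type I receptors. In the lung TGF-beta is known for driving matrix deposition by fibroblasts and contractile genes in smooth muscle.

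All values are log2 signals, so that a difference of 1 is a doubling, and they compare the same probe set between arrays, not 1 gene with another. Array medians lay between 7.691 and 7.768, and arrays correlated pairwise, across genes, at 0.9854 to 0.9963. Differences were tested in 1 limma model over all 16 arrays and 14506 genes, and a gene is called where its Benjamini-Hochberg adjusted p is under 0.05. The 10 epithelial markers checked, among them the surfactant genes Sftpc (lowest 13.83, median 13.92, highest 13.99 over the 16 arrays) and Sftpb (13.74, 13.84, 13.95), had medians of 12.11 or more, while of 7 liver genes 6, among them albumin (Alb, median 5.48), had medians of 6.47 or less and Serpina1 had 9.34. The labels of normoxia replicate 4 disagree, with normoxia in its title but hypoxia as its treatment. It stands here with the normoxia group, and calls among the 9 genes that are lost on counting it as hypoxia are marked. Lost calls of other pathway genes are given by count and in part by name. Those of the marker calls reported below are given by count.

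The first question is how 2 weeks of hypoxia altered these genes. The activin A subunit Inhba, the TGF-beta ligand Tgfb3 and both activin antagonists, Fst and Fstl3, rose, between 1.31-fold (Fstl3) and 2.18-fold (Fst). Of the 9 genes, 4 were called higher and 0 lower. Of all genes 5.63% were called in either direction, 3.21% higher and 2.43% lower. The 9 were chosen with earlier results known, so these shares describe and test nothing. The arrays of the 2 groups did not overlap for these 4, against 12.1% of all genes. The median log2 difference was 0.26 over the 9 genes and 0.03 over all genes.

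**Figure D1:**
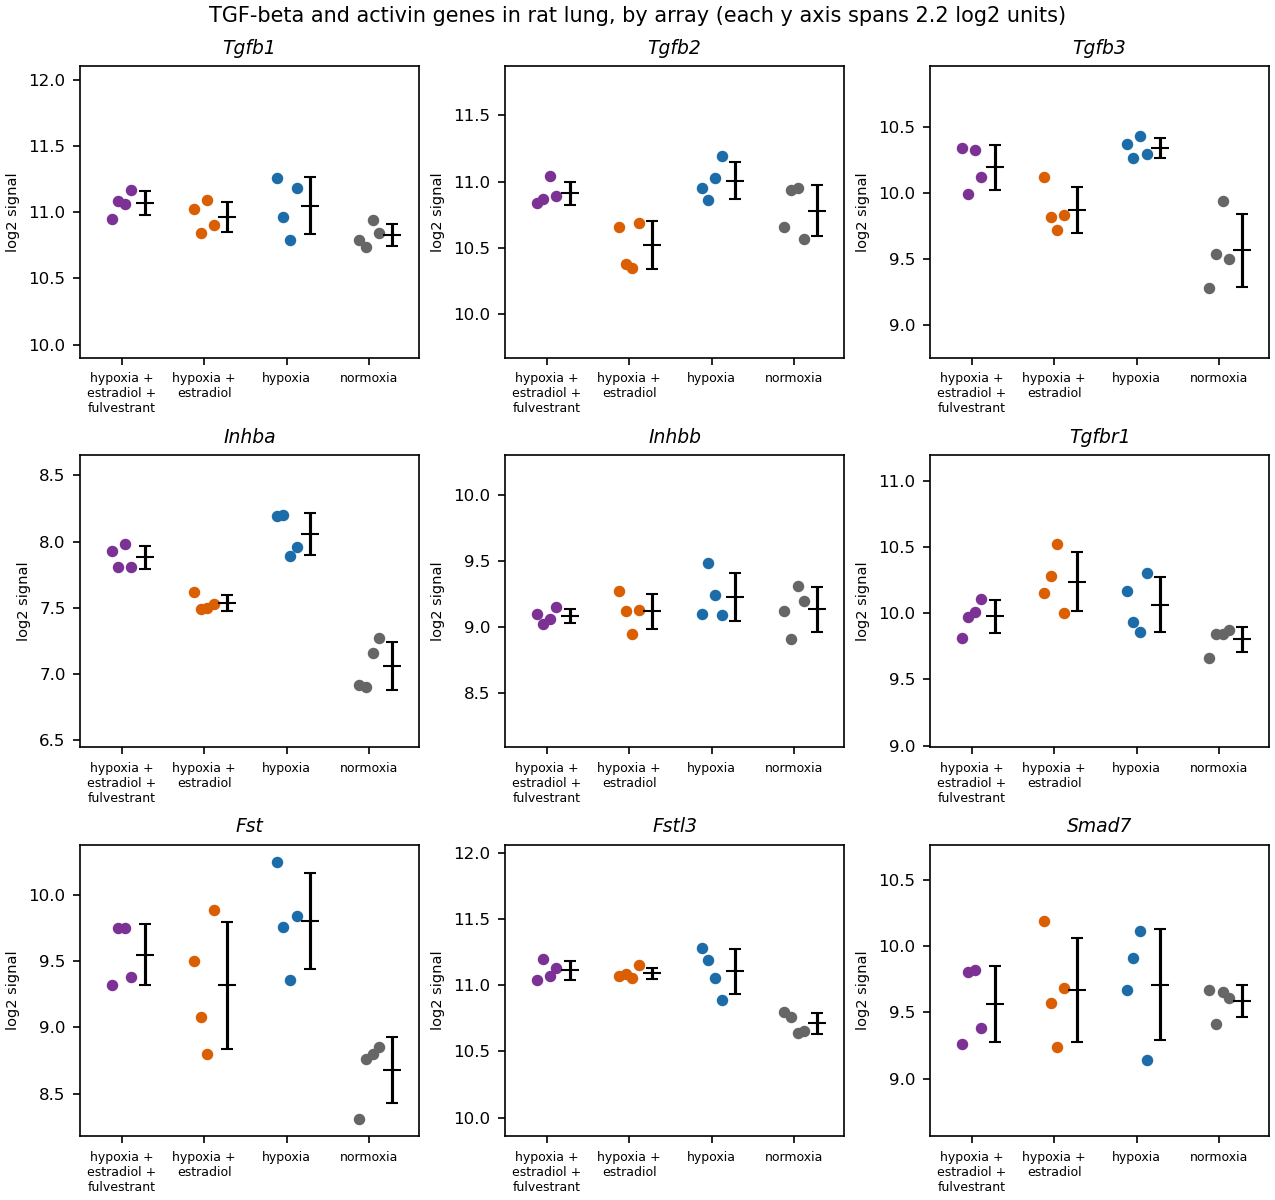
Log2 signal of 9 TGF-beta and activin genes on each of 16 rat lung arrays, by group, with each y axis spanning the same number of log2 units; coloured points are single arrays, black marks the mean and SD of 4. For Inhba and Fstl3 every normoxia array lies below every other array. The 4 hypoxia + estradiol arrays of Inhba (7.49 to 7.62) lie between those of hypoxia (7.89 to 8.20) and normoxia (6.90 to 7.27).

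Inhba encodes the subunit of activin A. Its signals were 8.19, 8.20, 7.89 and 7.96 in hypoxia, against 6.92, 6.90, 7.16 and 7.27 in normoxia. All 4 hypoxia arrays were above all 4 normoxia arrays, and normoxia replicate 4, at 7.27, was the highest of its group. The mean was 8.06 ± 0.16 in hypoxia and 7.06 ± 0.19 in normoxia (SD, n = 4 each), a 1.99-fold rise (log2 1, SE 0.091, adjusted p = 1.35e-05 by limma). This call alone of the 4 was kept on relabelling normoxia replicate 4 as hypoxia (log2 0.91, adjusted p = 0.0284).

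Inhba, Tgfb2 and Tgfb3 are the 3 ligand genes whose arrays did not overlap between hypoxia with and without estradiol, as described below, and their promoters are shown for that reason, with that of Fstl3, which had nearly equal means in all 3 hypoxia groups, for contrast. Each run covers 250 bases before to 50 after the gene's start, 5′ to 3′ on the gene's strand, from RefSeq in build GRCr8. The table holds 9 of the 10 genes (all but Fst) among 33469 promoters. Capitals mark 2 motifs, found on both strands: the core of the hypoxia-inducible factor site (ACGTG or GCGTG, on the other strand CACGT or CACGC) and the SMAD box (GTCTG, on the other strand CAGAC). The coordinates on the minus strand are chr17:53804459-53804758 for Inhba, chr13:100792636-100792935 for Tgfb2, chr6:111456897-111457196 for Tgfb3 and chr7:10579795-10580094 for Fstl3.
Inhba: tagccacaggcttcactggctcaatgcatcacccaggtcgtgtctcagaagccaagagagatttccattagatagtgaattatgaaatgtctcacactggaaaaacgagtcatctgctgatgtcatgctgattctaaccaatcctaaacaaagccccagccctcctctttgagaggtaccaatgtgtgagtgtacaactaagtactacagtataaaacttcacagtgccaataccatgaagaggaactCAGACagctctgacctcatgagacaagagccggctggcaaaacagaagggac
Tgfb2: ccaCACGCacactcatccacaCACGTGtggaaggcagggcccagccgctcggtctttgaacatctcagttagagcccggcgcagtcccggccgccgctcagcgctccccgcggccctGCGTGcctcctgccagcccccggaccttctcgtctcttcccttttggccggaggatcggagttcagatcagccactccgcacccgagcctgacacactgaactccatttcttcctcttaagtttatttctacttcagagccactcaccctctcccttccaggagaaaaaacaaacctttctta
Tgfb3: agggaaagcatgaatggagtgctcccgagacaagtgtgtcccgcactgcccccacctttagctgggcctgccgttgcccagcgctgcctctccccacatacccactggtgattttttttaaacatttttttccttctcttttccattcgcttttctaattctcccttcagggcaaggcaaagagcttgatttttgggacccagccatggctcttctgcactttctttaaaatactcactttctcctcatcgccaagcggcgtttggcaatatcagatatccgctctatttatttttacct
Fstl3: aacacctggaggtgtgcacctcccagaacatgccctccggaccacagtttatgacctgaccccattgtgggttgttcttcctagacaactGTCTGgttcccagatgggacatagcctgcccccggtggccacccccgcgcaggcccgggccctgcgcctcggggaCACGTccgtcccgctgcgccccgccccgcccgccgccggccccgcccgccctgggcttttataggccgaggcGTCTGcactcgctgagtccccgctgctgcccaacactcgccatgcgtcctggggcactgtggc
The hypoxia core had 0 matches in Inhba, 4 in Tgfb2, 2 of which overlap on opposite strands, 0 in Tgfb3 and 1 in Fstl3, and 41.6% of all promoters of this length hold at least 1. The SMAD box had 1 match in Inhba, 0 in Tgfb2, 0 in Tgfb3 and 2 in Fstl3, against 50.1% of all promoters with at least 1. The full estrogen response element, an inverted repeat of GGTCA with 3 bases between, had 0 matches in the 9 promoters, against 0.0269% of all. A single GGTCA on either strand had 1 match in Inhba, 2 in Fstl3 and 0 in the other 7, against 40.5% of all. A match is a description of the letters and not a bound site.

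Tgfb3 encodes a TGF-beta ligand and measured 10.37, 10.26, 10.43 and 10.29 in hypoxia, against 9.28, 9.54, 9.94 and 9.50 in normoxia. The hypoxia arrays lay close together and all above the normoxia arrays. The rise was 1.71-fold (log2 0.77, SE 0.12, adjusted p = 0.0013).

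Fst, which encodes follistatin, measured 10.25, 9.76, 9.36 and 9.84 in hypoxia, against 8.31, 8.76, 8.80 and 8.85 in normoxia. Its arrays did not overlap either, although the hypoxia arrays were spread widely. The mean rose 2.18-fold (log2 1.12, SE 0.22, adjusted p = 0.00565).

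Fstl3, a secreted relative of follistatin, measured 11.28, 11.19, 11.05 and 10.89 in hypoxia, against 10.80, 10.76, 10.64 and 10.65 in normoxia. The lowest hypoxia array was just above the highest normoxia array. The rise was 1.31-fold (log2 0.39, SE 0.075, adjusted p = 0.00518). On counting normoxia replicate 4 as hypoxia the calls of Tgfb3 (log2 0.59, adjusted p = 0.155), Fst (0.99, adjusted p = 0.107) and Fstl3 (0.28, adjusted p = 0.218) were lost, although the signals of that array, at 9.50, 8.85 and 10.65, lay below every hypoxia array. Dropping any single array of the pair of groups (8 fits) kept all 4 calls.

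The other 5 genes were not called between hypoxia and normoxia. Tgfb1, the most studied ligand of the family, measured 11.26, 10.96, 10.79 and 11.18 in hypoxia, against 10.79, 10.74, 10.94 and 10.84 in normoxia (log2 0.22, SE 0.093, adjusted p = 0.189). Without hypoxia replicate 3, the lowest of its group, the difference was 0.31 and passed (adjusted p = 0.0435). Tgfb2 differed by 0.23 (SE 0.10, adjusted p = 0.23) and the type I receptor gene Tgfbr1 by 0.26 (SE 0.11, adjusted p = 0.197). Inhbb, the activin B subunit, differed by 0.09, with a 95% interval of -0.11 to 0.30, and Smad7 by 0.12, with the wider interval of -0.31 to 0.56.

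**Figure D2:**
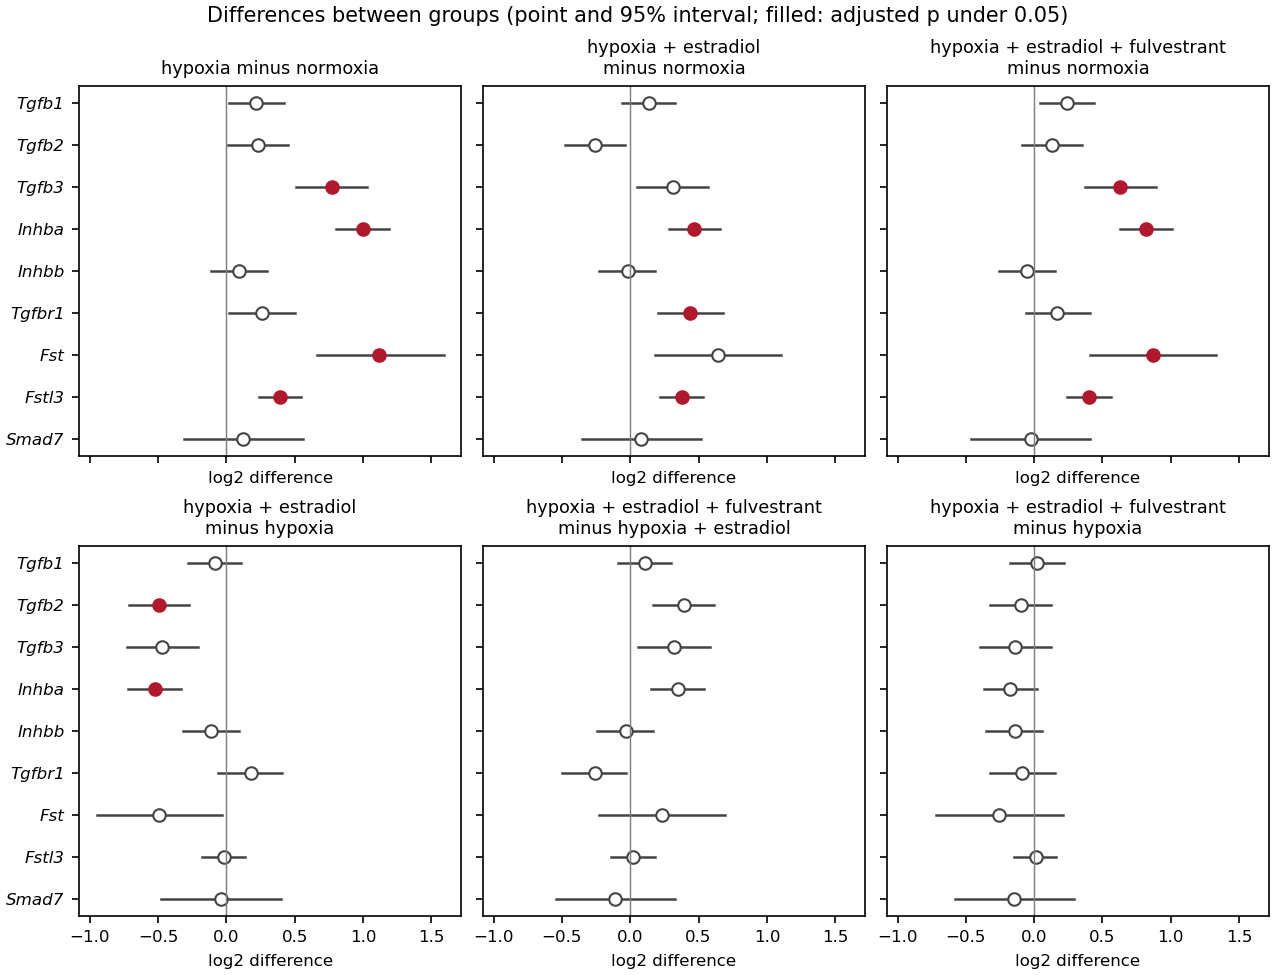
Log2 difference between groups for 9 TGF-beta and activin genes in each of 6 comparisons; points are differences, bars their 95% intervals from the moderated fit, and filled points have an adjusted p under 0.05. Filled points lie right of 0 in the 3 comparisons with normoxia and left of 0 for Inhba (-0.52) and Tgfb2 (-0.49) in hypoxia + estradiol minus hypoxia.

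The next comparison, hypoxia with estradiol against hypoxia, concerns the effect of estradiol in hypoxic rats. Inhba and Tgfb2 were lower with estradiol, by 1.44-fold and 1.40-fold, and Tgfb3 had a difference of like size that did not pass. Of the 9 genes, 2 were called lower and 0 higher, against 0.772% of all genes called in either direction, 0.31% called higher and 0.462% called lower. Arrays did not overlap for 3 of the 9, against 6.65% of all genes, and the median log2 difference was -0.11 over the 9 and -0.02 over all genes. This comparison and the one before it share the hypoxia arrays, so that their differences are not independent.

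Inhba measured 7.62, 7.49, 7.5 and 7.53 in hypoxia with estradiol, against 8.19, 8.20, 7.89 and 7.96 in hypoxia. The estradiol arrays lay close together, below all hypoxia arrays and above all normoxia arrays. The difference from hypoxia was -0.52 (SE 0.091, adjusted p = 0.0362). The call was lost without hypoxia replicate 1 (adjusted p = 0.104), 2 (0.0645) or 4 (0.0608) and without estradiol replicate 2 (0.0683) or 3 (0.088), with differences of -0.56 to -0.48 in these fits.

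Tgfb2, a ligand that needs a co-receptor for strong binding to the type II receptor, measured 10.66, 10.38, 10.35 and 10.69 in hypoxia with estradiol, against 10.95, 10.86, 11.03 and 11.19 in hypoxia. The estradiol arrays formed a lower pair (replicates 2 and 3) and a higher pair (1 and 4), all below the hypoxia arrays. The difference was -0.49 (SE 0.10, adjusted p = 0.0404). It missed the threshold without hypoxia replicate 1 (adjusted p = 0.113), 2 (0.0651), 3 (0.0635) or 4 (0.0999), without estradiol replicate 2 (0.115) or 3 (0.133), and with each array centred on its median (0.0518). Both calls were lost in a fit of only the 8 arrays of these groups (adjusted p = 0.176 for Tgfb2 and 0.0987 for Inhba) and on relabelling normoxia replicate 4 as hypoxia (0.161 and 0.278).

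Tgfb3 measured 10.12, 9.82, 9.72 and 9.83 in hypoxia with estradiol, against 10.37, 10.26, 10.43 and 10.29 in hypoxia. The groups did not overlap, but the difference of -0.47 (SE 0.12) had an adjusted p of 0.0818. Without estradiol replicate 1, the highest of its group, it was -0.55 and passed (adjusted p = 0.0425). Fst had a difference of -0.49 with a larger error (SE 0.22, adjusted p = 0.285), and its estradiol arrays, at 9.50, 9.08, 8.80 and 9.89, were spread widely and overlapped with hypoxia.

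The 5 remaining genes showed differences between -0.11 (Inhbb) and 0.18 (Tgfbr1) and were not called. Fstl3 measured 11.07, 11.08, 11.05 and 11.15 in hypoxia with estradiol, within the range of the hypoxia arrays, and its difference was -0.02 with a 95% interval of -0.18 to 0.14. Tgfb1 differed by -0.08, with an interval of -0.28 to 0.11. Estradiol replicates 2 and 3 had been set apart in an earlier analysis of these data, and neutrophil markers split this group alike, with mean log2 signals of 1.28 and 1.28 above normoxia in replicates 2 and 3, and 0.32 and 0.31 in replicates 1 and 4. The part of that split in the low Tgfb2 values of replicates 2 and 3 was not tested. Leaving both out gave -0.48 for Inhba (adjusted p = 0.218) and -0.33 for Tgfb2 (adjusted p = 0.417), and 0 of all genes were then called.

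No group had fulvestrant without estradiol. Whether the other groups had vehicle injections is not given here, so the drug and its daily injections cannot be told apart. The next comparison sets hypoxia with estradiol and this estrogen receptor antagonist against hypoxia with estradiol. None of the 9 genes was called by limma, against 0.0483% of all genes (7 genes), 0.0207% higher and 0.0276% lower. At an unadjusted p under 0.05 there were 4 of the 9 (Inhba, Tgfb2, Tgfb3 and Tgfbr1) and 2142 of all 14506. The arrays of Inhba and Tgfb2 did not overlap between these groups, as was the case for 9.05% of all genes. This comparison shares the estradiol arrays with the one before it, so genes noted there for low values in those arrays tend towards the opposite sign here without any change, and the opposite signs below are a description only.

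Inhba measured 7.93, 7.81, 7.98 and 7.81 with fulvestrant added, against 7.62, 7.49, 7.5 and 7.53 with estradiol alone in hypoxia. The difference was 0.35 (SE 0.091, 95% interval 0.15 to 0.54, adjusted p = 0.0963). Tgfb2 measured 10.84, 10.87, 11.04 and 10.89 with fulvestrant added, against 10.66, 10.38, 10.35 and 10.69 without it (log2 0.39, SE 0.10, adjusted p = 0.103). Every fulvestrant array was above every estradiol array for both genes. Without estradiol replicate 4, the highest of its group for Tgfb2, that difference was 0.44 and passed (adjusted p = 0.0475).

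Tgfb3 measured 10.34, 9.99, 10.32 and 10.12 with fulvestrant added, against 10.12, 9.82, 9.72 and 9.83 without it (log2 0.32, SE 0.12, adjusted p = 0.228). Tgfbr1, whose kinase passes the signal to Smad2 and Smad3, was the 1 gene with a difference of this order in the other direction, at 9.81, 9.97, 10.01 and 10.11 with fulvestrant added and 10.15, 10.28, 10.52 and 10.00 without it (log2 -0.26, SE 0.11, adjusted p = 0.285). Both pairs of groups overlapped in at least 1 array. The other 5 genes differed by -0.11 (Smad7) to 0.23 (Fst), with adjusted p from 0.659 to 0.929.

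Hypoxia with estradiol and fulvestrant was also set against hypoxia alone. Of the 9 genes 0 were called, as were 0% of all genes, and the differences ran from -0.26 (Fst) to 0.02 (Tgfb1). At an unadjusted p under 0.05 there were 0 of the 9 and 1009 of all genes. For Inhba the difference was -0.18 with a 95% interval of -0.37 to 0.02, for Tgfb2 -0.10 (-0.32 to 0.12) and for Tgfb3 -0.14 (-0.40 to 0.12). Arrays overlapped for all 9 genes, against 5.03% of all genes without overlap.

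The design text sets all 3 hypoxia groups against normoxia, and these comparisons share the normoxia arrays. In hypoxia with estradiol, Inhba, Fstl3 and Tgfbr1 were higher than in normoxia: 3 of the 9 genes were called higher and 0 lower, against 5.21% of all genes called, 2.87% higher and 2.34% lower. The same 3 genes had arrays that did not overlap, against 9.21% of all genes. Inhba differed by 0.47 (SE 0.091, adjusted p = 0.00782) and Fstl3 by 0.38 (SE 0.075, adjusted p = 0.00931), and both calls held in each of 8 fits without 1 array but neither passed on relabelling normoxia replicate 4 as hypoxia (adjusted p = 0.0828 and 0.1).

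Tgfbr1 measured 10.15, 10.28, 10.52 and 10.00 in hypoxia with estradiol, against 9.66, 9.84, 9.84 and 9.87 in normoxia. It was 1.36-fold higher (log2 0.44, SE 0.11, adjusted p = 0.0338). It was no longer called without normoxia replicate 1 (adjusted p = 0.106), 2 (0.0711) or 3 (0.0585), without estradiol replicate 2 (0.0757) or 3 (0.0983), in a fit of only these 8 arrays (0.0873), and on relabelling normoxia replicate 4 (0.0603). Without estradiol replicates 2 and 3 together the difference was 0.28 (adjusted p = 0.285).

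Tgfb3 differed from normoxia by 0.31 in hypoxia with estradiol (SE 0.12, adjusted p = 0.182), and by 0.43 without normoxia replicate 3 (adjusted p = 0.0321). Fst differed by 0.64 (SE 0.22, adjusted p = 0.113). It passed without estradiol replicate 3 (log2 0.81, adjusted p = 0.0497) and without replicates 2 and 3 (log2 1.02, adjusted p = 0.0262). Tgfb2 had a mean of 10.52 ± 0.18 in hypoxia with estradiol and 10.78 ± 0.19 in normoxia (SD, n = 4 each), a difference of -0.26 (SE 0.10, adjusted p = 0.189).

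In hypoxia with estradiol and fulvestrant, the 4 genes called were those called in hypoxia alone. Of the 9 genes 4 were higher than in normoxia and 0 lower, against 2.96% of all genes called, 1.97% higher and 0.993% lower. Inhba differed by 0.82 (SE 0.091, adjusted p = 0.000109), Tgfb3 by 0.63 (SE 0.12, adjusted p = 0.00833), Fst by 0.87 (SE 0.22, adjusted p = 0.0408) and Fstl3 by 0.40 (SE 0.075, adjusted p = 0.00678). Arrays did not overlap for 5 genes, Tgfb1 (log2 0.24, adjusted p = 0.21) being the fifth, against 12.3% of all genes. After relabelling normoxia replicate 4, Inhba alone was called (adjusted p = 0.026). The call of Fst was lost in all 8 fits without 1 array: omitting normoxia replicate 1 (adjusted p = 0.14), 2 (0.0752), 3 (0.0629) or 4 (0.0631), as well as fulvestrant replicate 1 (0.0531), 2 (0.113), 3 (0.13) or 4 (0.071).

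Set in order of their means, the groups ran alike for Inhba and Tgfb3. Inhba averaged 7.88 ± 0.09 with estradiol and fulvestrant, 7.53 ± 0.06 with estradiol, 8.06 ± 0.16 in hypoxia and 7.06 ± 0.19 in normoxia (SD, n = 4 each). Its order from high to low was thus hypoxia, fulvestrant added, estradiol and normoxia, of which limma did not call hypoxia against fulvestrant added (adjusted p = 0.743) or fulvestrant added against estradiol (0.0963) but did call estradiol against normoxia. Tgfb3 kept the same order, with means of 10.34 in hypoxia, 10.19 with fulvestrant added, 9.87 with estradiol and 9.56 in normoxia, and no pair of neighbours in it passed. Fst also kept it, at 9.80 in hypoxia, 9.55 with fulvestrant added, 9.32 with estradiol and 8.68 in normoxia, and again no pair of neighbours passed. Tgfb2 differed in that its lowest mean was with estradiol (10.52), below normoxia (10.78), and Tgfbr1 in that its highest mean was with estradiol (10.24).

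The genes also differed in how much they varied within a group. Smad7, the inhibitor of the type I receptors, had a within-group SD of 0.327 and a range of group means of 0.15. It measured 9.26, 9.80, 9.82 and 9.38 with estradiol and fulvestrant, 10.19, 9.57, 9.24 and 9.68 with estradiol, 9.67, 9.91, 10.11 and 9.14 in hypoxia, and 9.67, 9.41, 9.65 and 9.61 in normoxia, so that all 4 groups overlapped. Fst had the largest within-group SD, 0.345, but also the largest range of group means, 1.12. Inhba combined a range of 1 with an SD of 0.133. Inhbb ranged by 0.14 with an SD of 0.143, and the medians over all genes were 0.17 for the range and 0.123 for the SD.

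Other genes of the pathway were read from 5 lists holding 80 genes, of which 72 were measured. These lists too were chosen with earlier results of these data known, so shares beside their counts are a description and no test. Between hypoxia and normoxia 11 of the 72 rose and 3 fell, against 3.21% and 2.43% of all genes. Hypoxia with estradiol against hypoxia gave 0 higher and 1 lower, against 0.31% and 0.462% of all genes, adding fulvestrant gave 0 and 0 against either hypoxia group, and against normoxia there were 6 higher and 5 lower with estradiol (2.87% and 2.34% of all genes) and 6 higher and 4 lower with fulvestrant added (1.97% and 0.993%). Among 11 other receptors and co-receptors 1 rose and 1 fell in hypoxia. Tgfbr3, the co-receptor betaglycan that presents Tgfb2 and also binds inhibins, was lower in hypoxia, at 11.56 ± 0.20, against 12.04 ± 0.20 in normoxia (SD, n = 4 each; log2 -0.48, SE 0.12, adjusted p = 0.0308), and lower with fulvestrant added (log2 -0.49 from normoxia, adjusted p = 0.0409). With estradiol Tgfbr3 was not called, at -0.21 from normoxia (adjusted p = 0.401) and 0.27 from hypoxia (adjusted p = 0.296). Acvr1, a type I receptor of BMPs and activin, was 0.27 higher in hypoxia than in normoxia (adjusted p = 0.0479). Eng, the endothelial co-receptor endoglin, was lower in hypoxia with estradiol than in normoxia (log2 -0.28, adjusted p = 0.0409). Eng was also below normoxia, without a call, in hypoxia (-0.17, adjusted p = 0.197) and with fulvestrant added (-0.23, adjusted p = 0.132). Its difference between estradiol and hypoxia was -0.10 (adjusted p = 0.52). Of 8 fits without 1 array, the calls of Tgfbr3 held in 4 for hypoxia and 1 with fulvestrant added. Those of Acvr1 and Eng held in 1 each. Of 6 further ligand genes, among them Inha, Mstn and Gdf11, 0 were called in any of the 6 comparisons.

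Of 17 genes of ligand storage, activation and binding 2 rose in hypoxia, 0 fell, and 15 did not pass, against 3.21% and 2.43% of all genes higher and lower. Ltbp2, a matrix protein of the family of latent TGF-beta binding proteins, rose to 11.36 ± 0.28, against 10.63 ± 0.18 in normoxia (SD, n = 4 each; log2 0.73, adjusted p = 0.00195), and the matrix-associated glycoprotein Fstl1 rose by 0.32 (adjusted p = 0.0312). In the 8 fits without 1 array, the call of Ltbp2 held in all 8 and that of Fstl1 in 3. The list's median log2 difference was 0.15, against 0.03 over all genes, and 0 of its genes were called in the other 5 comparisons.

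Of 11 Smads and their regulators 1 rose and 2 fell in hypoxia, against 3.21% and 2.43% of all genes. Pmepa1, a TGF-beta target that restrains Smad signalling, rose by 0.63 (SE 0.081, adjusted p = 0.000307). The inhibitory Smad6 fell by 0.61 (SE 0.14, adjusted p = 0.0174) and the ubiquitin ligase Smurf2, which works with Smad7 on receptors, fell by 0.33 (SE 0.065, adjusted p = 0.00595). The same 3 were called in the same directions against normoxia with estradiol (Pmepa1 0.36, Smad6 -0.55, Smurf2 -0.26) and with fulvestrant added (Pmepa1 0.40, Smad6 -0.65, Smurf2 -0.28), where Zfyve9, which anchors Smad2 and Smad3 near receptors, was lower as well (-0.25, adjusted p = 0.0263). These 3 comparisons share the normoxia arrays. Of all genes 2.87% were higher and 2.34% lower with estradiol, and 1.97% and 0.993% with fulvestrant added. In the 8 fits without 1 array, the calls of Smad6 held in 5 for hypoxia, 3 with estradiol and 5 with fulvestrant added. Those of Smurf2 held in 8, 4 and 3, those of Pmepa1 in 8, 6 and 7, and that of Zfyve9 in 2. Smad2, Smad3 and Smad4 were not called in any of the 6.

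Of 32 genes known to be induced by TGF-beta, 9 were higher in hypoxia than in normoxia, 0 lower, and 23 did not pass. Of all genes 3.21% were higher and 2.43% lower. The median log2 difference was 0.26 over the list and 0.03 over all genes. The list was chosen with earlier results of these data known, so this is a description. The 9 higher genes included the matricellular gene Ccn2 (0.82, adjusted p = 0.000953), Plod2, which hydroxylates collagen lysines (0.80, adjusted p = 0.000582), Ltbp2, and the transcription factor Bhlhe40 (0.83, adjusted p = 0.0486). The call of Bhlhe40 held in 0 of the 8 fits without 1 array, and those of Ccn2, Plod2 and Ltbp2 in all 8. Bhlhe40 and Plod2 are also known targets of hypoxia-inducible factors. The collagen genes Col1a1, Col1a2 and Col3a1 were at 0.37, 0.32 and 0.07 and were not called. With estradiol 1 gene of the list fell relative to hypoxia (0.462% of all genes), the crosslinking enzyme Loxl1, which measured 11.76 ± 0.15 with estradiol and 12.30 ± 0.12 in hypoxia (SD, n = 4 each; log2 -0.55, adjusted p = 0.0387), with a list median of -0.16. Its call was kept in 2 of the 8 fits without 1 array and was lost on relabelling normoxia replicate 4 and without estradiol replicates 2 and 3.

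Against normoxia, 6 of these 32 genes were higher and 2 lower in hypoxia with estradiol (2.87% and 2.34% of all genes). With fulvestrant added 6 were higher and 0 lower (1.97% and 0.993% of all genes). With estradiol the largest were Bhlhe40 (1.10, adjusted p = 0.0135), Ccn2 (0.96, adjusted p = 0.000338), the immediate early gene Junb (0.94, adjusted p = 0.0352) and Plod2 (0.53, adjusted p = 0.0142). With fulvestrant added they were the smooth muscle genes Cnn1 (0.88, adjusted p = 0.000312) and Tagln (0.47, adjusted p = 0.00221), with Plod2 (0.73) and Ccn2 (0.59). In the 8 fits without 1 array, the call of Junb with estradiol held in 2 and that of Ccn2 with fulvestrant added in 5. The other calls just named held in all 8. Ltbp2, Thbs1, Itgb6, Bgn, Skil and Pmepa1 stand in 2 of these lists, and Acta2, Cnn1 and Tagln are also among the smooth muscle markers below. Counting normoxia replicate 4 as hypoxia, 0 of the 14 calls of these lists between hypoxia and normoxia held, and 7 of the 14 (Ltbp2, Smurf2, Pmepa1, Ccn2, Cnn1, Loxl1 and Plod2) held in each of the 8 fits without 1 array. Of the 11 calls with estradiol against normoxia 3 held under that relabelling (Ccn2, Postn and Cdkn2b), so that those of Eng, Smad6, Smurf2, Pmepa1, Cnn1, Bhlhe40, Junb and Plod2 were lost. Of the 10 calls with fulvestrant added against normoxia 3 held (Acta2, Tagln and Cnn1), and those of Tgfbr3, Smad6, Smurf2, Zfyve9, Pmepa1, Ccn2 and Plod2 were lost.

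**Figure D3:**
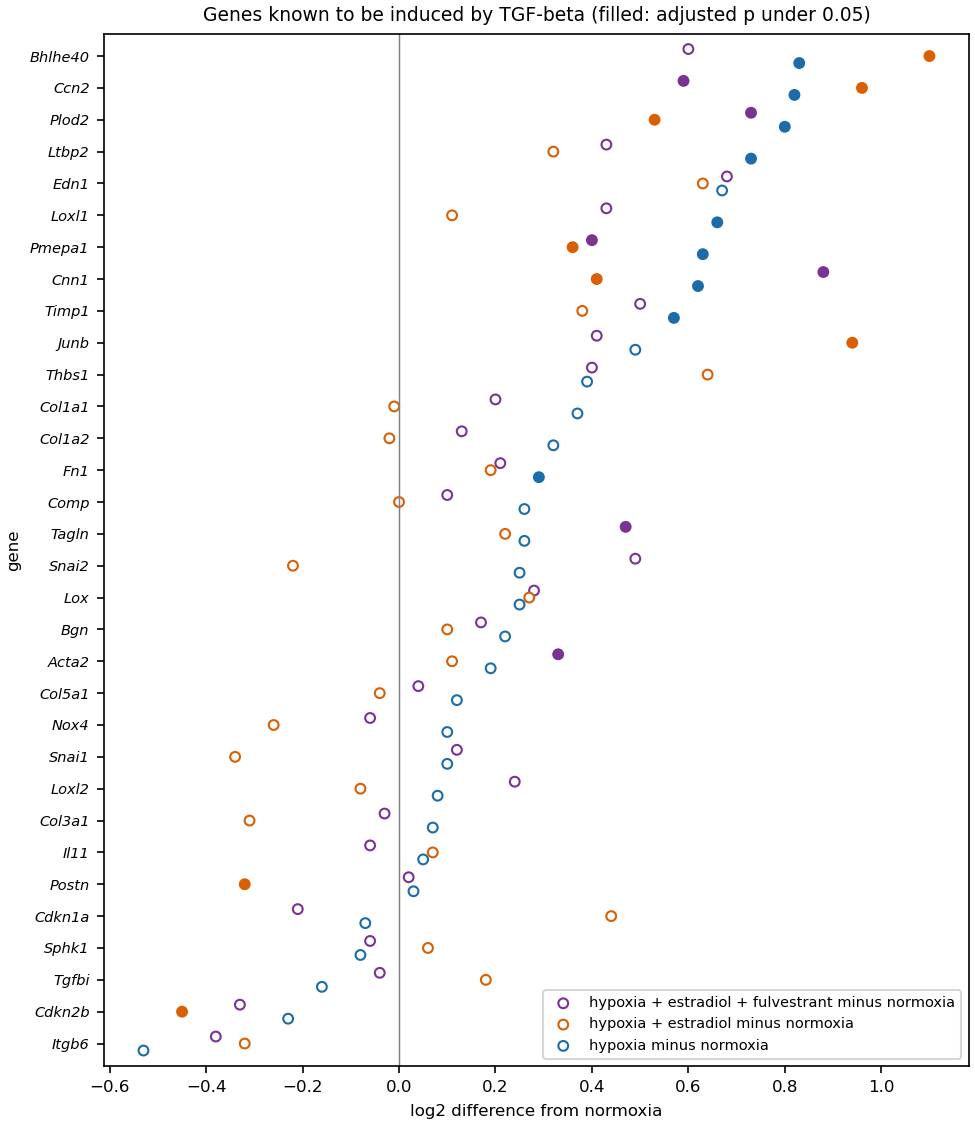
Log2 difference from normoxia of 32 genes known to be induced by TGF-beta, sorted by hypoxia minus normoxia; purple, orange and blue points (top to bottom within a gene) are hypoxia + estradiol + fulvestrant, hypoxia + estradiol and hypoxia, each minus normoxia, and filled points have an adjusted p under 0.05. In hypoxia 9 points are filled, all right of 0, and with estradiol Postn (-0.32) and Cdkn2b (-0.45) are filled left of 0.

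Markers of several cell types moved with these genes, and their part in the results was not tested. Of 8 smooth muscle markers 3 were called higher in hypoxia than in normoxia (3.21% of all genes), 3 with estradiol (2.87% of all genes) and 6 with estradiol and fulvestrant (1.97% of all genes). Counting normoxia replicate 4 as hypoxia kept 1 of the 3 calls in hypoxia, 1 of the 3 with estradiol and all 6 with estradiol and fulvestrant. The mean of these 8 smooth muscle markers above the normoxia mean ran from 0.48 to 0.89 with estradiol and fulvestrant, 0.24 to 0.47 with estradiol, 0.25 to 0.51 in hypoxia, and -0.22 to 0.16 in normoxia. The 9 pericyte markers ran from 0.21 to 0.33, -0.09 to 0.18, 0.21 to 0.44 and -0.06 to 0.06 in the same order of groups, so that the estradiol arrays lay below both other hypoxia groups, and 2 of the 9 were called lower with estradiol than in hypoxia (0.462% of all genes). In hypoxia 3 of the 9 were called higher than in normoxia (3.21% of all genes), as were 3 with estradiol (2.87%) and 2 with fulvestrant added (1.97%). The 9 fibroblast markers did not separate the groups (-0.26 to -0.01, -0.27 to 0.04, -0.16 to 0.18 and -0.26 to 0.24), and 0 of them were called in any comparison. The 9 alveolar macrophage markers were above normoxia in every hypoxia group (0.28 to 0.35, 0.40 to 0.73, 0.28 to 0.78 and -0.11 to 0.06). In hypoxia 5 of these 9 were called higher than in normoxia (3.21% of all genes), as were 5 with estradiol (2.87%) and 1 with fulvestrant added (1.97%). The 11 neutrophil markers, 8 of which were called higher with estradiol than in hypoxia (0.31% of all genes), were highest with estradiol (-0.07 to 0.22, 0.31 to 1.28, -0.87 to -0.20 and -0.38 to 0.23). The 10 endothelial markers ran from 0.08 to 0.13, -0.23 to 0.13, 0.06 to 0.13 and -0.04 to 0.06. Against normoxia 3 of them were called higher and 2 lower in hypoxia (3.21% and 2.43% of all genes). With estradiol 3 were higher and 3 lower (2.87% and 2.34%). The 9 markers of monocytes and interstitial macrophages ran from 0.08 to 0.24, -0.14 to 0.17, 0.09 to 0.37 and -0.05 to 0.04. Against normoxia 4 of these 9 were higher and 0 lower in hypoxia (3.21% and 2.43% of all genes), and 1 was higher and 3 lower with estradiol (2.87% and 2.34%). The calls of pericyte and neutrophil markers between hypoxia with estradiol and hypoxia were all lost on relabelling normoxia replicate 4, and also without estradiol replicates 2 and 3. Between hypoxia and normoxia that relabelling kept 0 of the pericyte, alveolar macrophage and endothelial calls. It kept 2 of the 4 of monocytes and interstitial macrophages. With estradiol against normoxia it kept 2 of 6 endothelial calls and 2 of 4 of monocytes and interstitial macrophages. There it also kept 1 of 3 pericyte calls and 3 of 5 alveolar macrophage calls. With fulvestrant added against normoxia it kept 1 of 2 pericyte calls and 0 of 1 alveolar macrophage call.

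Markers of blood cells differed between the groups as well. All 8 natural killer cell markers were called lower in hypoxia than in normoxia (2.43% of all genes), and their mean ran from -0.88 to -0.39 with estradiol and fulvestrant, -0.76 to -0.47 with estradiol, -1.05 to -0.80 in hypoxia and -0.28 to 0.17 in normoxia. T cell markers (5 of 8 called lower in hypoxia) ran from -0.40 to 0.09, -0.55 to -0.05, -0.64 to -0.51 and -0.31 to 0.37, and B cell markers (2 of 5) from -0.66 to -0.12, -0.68 to -0.44, -1.18 to -0.53 and -0.37 to 0.42, in the same order of groups. Against normoxia, 5 natural killer, 0 T cell and 1 B cell markers were called lower with estradiol (2.34% of all genes). With fulvestrant added 3, 0 and 0 were called lower (0.993% of all genes). On relabelling normoxia replicate 4, 0 of these lymphocyte calls held. Erythrocyte markers ran from 0.59 to 1.74, -0.17 to 1.47, -0.04 to 1.81 and -0.14 to 0.21. In hypoxia 1 of these 7 was called higher than in normoxia (3.21% of all genes), and 0 on that relabelling. The 7 cardiac muscle markers, which the muscle sleeves of pulmonary veins express, were at -1.17, -1.17, 0.56 and 1.78 in normoxia replicates 1 to 4, so that the array of doubtful label was the highest, against -1.18 to -0.19 over the hypoxia groups, and 0 of them were called. On the natural killer (-0.03), T cell (0.37), alveolar macrophage (0.04) and pericyte (0.04) lists that array lay outside the range of hypoxia. On the fibroblast list (0.06) it lay within the ranges of both groups. Which of its labels is right was not tested.

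**Figure D4:**
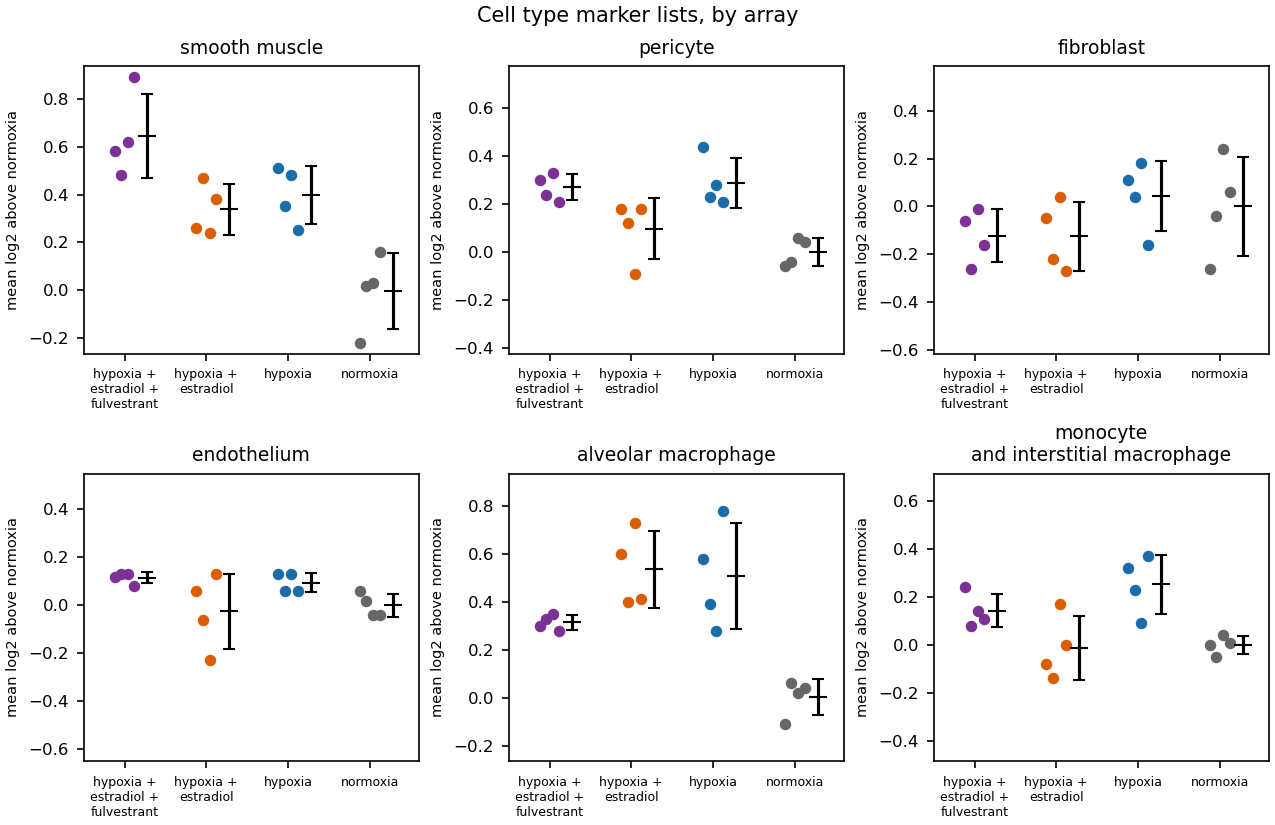
Mean log2 signal above the normoxia mean of 6 lists of cell type markers on each array, by group; points are single arrays, black marks the mean and SD of 4. Smooth muscle markers are above normoxia in all 3 hypoxia groups, and pericyte markers run lower with estradiol (-0.09 to 0.18) than in hypoxia (0.21 to 0.44).

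For each gene called in at least 1 comparison, the 3 genes of most similar pattern were found by the mean absolute difference, over the 16 arrays, between signals centred on each gene's own mean. Genes picked this way lie below the median over all genes by choice. Their differences between groups tend to resemble those of the member for the same reason. The closest to Inhba was Robo4, a guidance receptor of endothelium, with a mean absolute difference of 0.109 log2 units, against a median of 0.345 over all genes, followed by Sorbs2 (0.118) and Nkd2 (0.13). Robo4 is 1 of the 10 endothelial markers above, of which 3 were called higher and 2 lower in hypoxia than in normoxia. Robo4 averaged 9.47 ± 0.06 with fulvestrant added, 9.13 ± 0.20 with estradiol, 9.52 ± 0.11 in hypoxia and 8.72 ± 0.03 in normoxia (SD, n = 4 each). Tgfb3 was followed most closely by Dkk3 (0.109), Mmp23 (0.116) and the actin-binding gene Dbn1 (0.119), against a median of 0.301. For Tgfb2 the closest were the matrix gene Postn (0.0752), Zfp9 (0.0761) and the Wnt inhibitor Wif1 (0.0851), against 0.208. The differences of Postn were 0.03 for hypoxia minus normoxia, -0.35 for hypoxia with estradiol minus hypoxia and 0.34 on adding fulvestrant, beside 0.23, -0.49 and 0.39 for Tgfb2.

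Fst was most like the glycolysis gene Tpi1 (0.191), Olfml2b (0.20) and Robo4 (0.20), against a median of 0.438. Fstl3 was most like the metalloprotease gene Adam15 (0.0581), Ptprn (0.0706) and Adgrl4 (0.0733), against 0.185, and Tgfbr1 was most like Msrb1 (0.0604), Apobr (0.0662) and Atp6v1b2, a subunit of the vacuolar proton pump (0.0713), against 0.202. These values describe likeness over the same 16 arrays and carry no test.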

How the data were processed

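The deposited table holds log2 values made by the authors with RMA, which corrects background, normalizes between arrays and summarises each probe set, and with Partek, per the submitters' processing notes, which give no versions or settings. RMA compresses differences of dim probe sets and hides a shift shared by most genes. Of 29214 probe sets 15310 carry exactly 1 gene symbol in GEO's platform annotation, 323 several and 13581 none. Symbols were updated through gene IDs in RefSeq (14480 of 14506 genes). Of several probe sets per gene (527 genes) the one with the highest mean over all 16 arrays was kept, and dim genes stayed in.

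Sample titles gave the groups. Replicates were numbered by accession, which pairs none of them, and no batch or date is given, so a batch that follows the groups cannot be told apart from treatment. The labels count single rats but name no cage or litter. limma 3.58.1 in R 4.3.3 fitted 4 group means to 16 arrays, with empirical Bayes moderation, and p-values were adjusted (Benjamini-Hochberg) over 14506 genes at a threshold of 0.05. Arrays have no count depth: 4 per group limit the precision. The fit was tested on simulated data.

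The members and lists were chosen with earlier results of these data known. Named were the members, up to 4 called genes with the largest differences per list and comparison, and 3 genes of like pattern per called member. Col1a1, Col1a2, Col3a1, Smad2, Smad3, Smad4, Inha, Mstn, Gdf11, Tgfbr3, Eng, Loxl1, Pmepa1, Cnn1, Acta2, Cdkn2b and Postn were also named where the rule did not select them in that comparison, after their values were seen. Alternatives were median centring, quantile normalization again, leaving out the dimmest 20% of genes, averaging probe sets, a trended and robust moderation, fits of only the groups compared, counting normoxia replicate 4 as hypoxia, leaving out estradiol replicates 2 and 3, and leaving out each array.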

Additional observations from a re-analysis of the deposited data

Results flagged for a closer look

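Of 36 sets of 4 arrays (9 genes in 4 groups), 2 held an array far from the other 3, by the gap to its neighbour relative to the range of the group, and chance gives about 1 in 20. Both are normoxia replicate 1. Tgfbr1 measured 9.66 there, against 9.84 to 9.87 on the other normoxia arrays. Fst measured 8.31 there, against 8.76 to 8.85.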

How the results depend on the processing

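The 13 calls among the 9 genes kept their sign in all 200 recomputed values, 158 of which stayed past the threshold and 42 of which missed it. Of the 628 values for the 41 differences that were not called, 6 passed and 33 changed sign. With normoxia replicate 4 counted as hypoxia, 40 genes were called in hypoxia against normoxia, 32 of them among the 817 called before (1 of the 9 genes), 0 for estradiol against hypoxia, where 112 had been called (0 of the 9), 351 for estradiol against normoxia, 301 of them among the 756 before (0 of the 9), and 100 for fulvestrant added against normoxia, 93 of them among the 430 before (1 of the 9). In fits of only 2 groups, hypoxia against normoxia gave 581 genes (4 of the 9) and fulvestrant added against normoxia 562 (4 of the 9). In these fits the other counts were 216 (2 of the 9) for estradiol against normoxia and 5 (0 of the 9) for estradiol against hypoxia. For fulvestrant added the counts were 0 against estradiol and 2 against hypoxia. Without estradiol replicates 2 and 3 the counts were 0 (0 of the 9) for estradiol against hypoxia, 0 for fulvestrant added against estradiol and 325 for estradiol against normoxia. Fulvestrant added against estradiol gave 12 genes with quantile normalization again and 44 with trended, robust moderation, against 7. Fulvestrant added against hypoxia gave 1 gene with median centring and 1 with quantile normalization again. Median centring left 1 of the 9 genes called for estradiol against hypoxia.

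Leaving out 1 array gave 428 to 986 genes for hypoxia against normoxia, 3 to 355 for estradiol against hypoxia (0 to 3 of the 9), 0 to 331 for fulvestrant added against estradiol (0 to 1 of the 9), 384 to 887 for estradiol against normoxia and 238 to 374 for fulvestrant added against normoxia. The lowest of these came without normoxia replicate 1 in each comparison with normoxia, and the highest of the 2 others without estradiol replicate 4. The cause was not tested.

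Sign changes were as follows. For hypoxia against normoxia, Smad7 ran from -0.01 to 0.31 over the fits without 1 array. For estradiol against hypoxia, Fstl3 ran from -0.09 to 0.04 and Smad7 ran from -0.23 to 0.1 over the fits without 1 array. Under that relabelling of normoxia replicate 4, Fstl3 was 0.07 for estradiol against hypoxia. Without estradiol replicates 2 and 3, Fstl3 was 0 and Smad7 was 0.22 for estradiol against hypoxia. For fulvestrant added against estradiol, Inhbb ran from -0.09 to 0.02, Fstl3 ran from -0.01 to 0.05 and Smad7 ran from -0.25 to 0.07 over the fits without 1 array. Without estradiol replicates 2 and 3, Fst was -0.15 for fulvestrant added against estradiol. For estradiol against normoxia, Inhbb ran from -0.1 to 0.04 and Smad7 ran from -0.09 to 0.22 over the fits without 1 array. With median centring, Inhbb was 0 for estradiol against normoxia. Under that relabelling of normoxia replicate 4, Inhbb was 0 for estradiol against normoxia. Without estradiol replicates 2 and 3, Inhbb was 0.06 for estradiol against normoxia. For fulvestrant added against normoxia, Inhbb ran from -0.13 to 0.01 and Smad7 ran from -0.11 to 0.08 over the fits without 1 array. For fulvestrant added against hypoxia, Tgfb1 ran from -0.06 to 0.09 and Fstl3 ran from -0.07 to 0.06 over the fits without 1 array. Under that relabelling of normoxia replicate 4, Tgfb3 was 0.02 for fulvestrant added against hypoxia. With median centring, Fstl3 was -0.01 for fulvestrant added against hypoxia.

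The 36 calls of other pathway genes were put through the same alternatives, a choice made after seeing the data: 0 changed sign, 15 held in every fit without 1 array, and 6 held with normoxia replicate 4 counted as hypoxia. Calls of marker genes were repeated under that relabelling and without estradiol replicates 2 and 3, also a choice made after seeing the data. No paired analysis was possible because replicate numbers were given in order of submission and pair nothing.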
